A study of Rattus norvegicus with 232 samples.

Results

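The 10 genes described here, Htr1a, Htr1b, Htr1d, Htr1f, Htr2a, Htr2c, Htr3a, Htr4, Htr5a and Htr7, code for serotonin receptors and were taken by symbol from the 20859 RefSeq genes of the deposited brain table. Whole brain tissue of untreated inbred rats of the Hybrid Rat Diversity Panel was sequenced as total RNA after removal of ribosomal RNA, with 214 libraries of 197 animals in 74 strains in this table. The groups are the strains themselves, and the labels name no transgene, diet or treatment. They fall into the HXB/BXH family (30 strains, 88 animals), the FXLE/LEXF family (19 strains, 43 animals) and classic inbred strains (25 strains, 66 animals). The HXB/BXH strains are recombinant inbred lines bred from BN-Lx/Cub and SHR/OlaIpcv, and the FXLE/LEXF strains from F344/Stm and LE/Stm, with these 4 progenitors counted among the classic strains. The study's methods describe young adult males whose brains were cut along the midline before RNA was taken from a single side, and 148 of the 232 labelled samples carry a label of male sex. For the HXB/BXH family and its progenitors the methods describe brains shipped from Prague in liquid nitrogen. For the other inbred strains of that study they describe animals from commercial suppliers and brains placed in RNAlater. Source and storage of the tissue thus go with strain and cannot be told apart from it. Of the strains, 54 had 3 animals, 15 had 2 and 5 had 1. A difference between strains in tissue of the whole brain can come from fewer cells of a type or from less RNA per cell, and these cannot be told apart.

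Serotonin is made by a small group of neurons in the raphe nuclei of the brainstem whose axons reach nearly every brain region, and its effect on a target cell depends on which receptors that cell carries. Htr1a, Htr1b, Htr1d, Htr1f and Htr5a act through Gi/o proteins, which lower cyclic AMP and open inward-rectifier potassium channels. Htr2a and Htr2c act through Gq and phospholipase C, Htr4 and Htr7 raise cyclic AMP through Gs, and Htr3a is a subunit of a cation channel that serotonin opens directly.

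Some libraries and labels stood apart before any receptor was considered. The libraries of this table fall into 17 sequencing batches by the batch characteristic, and in 23 libraries the title gives another batch number. For the 1 LEXF9/Stm library the column name and the batch characteristic of its sample give different batches. Most batches held mainly strains of 1 panel, and panels were described and not compared. SHR/OlaIpcv was represented by 2 animals, one with 12 repeat libraries and the other with 6. LE/Stm had 1 animal, in which the liver genes Alb, Serpina1 and Apoa2 reached 23.18, 20.72 and 13.60 on the log2 scale, the highest strain mean for each. In 4 animals labelled male, 3 of LEW/Crl and 1 of HXB17/Ipcv, genes of the Y chromosome lay more than 0.9 log2 units under the median of the animals. Without these 4 animals the number of receptors called in each comparison was the same as with them (7 over all strains, 3 in HXB/BXH, 0 in FXLE/LEXF, 2 among classic strains and 0 in each strain pair).

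All 10 receptors had a value in every animal. Values are the authors' log2-scale expression values, not corrected for gene length, so levels were compared between strains and not between genes. The widest range of strain means was that of Htr3a, from 7.03 through a median of 7.48 to 7.84, a 1.76-fold span. Htr1b had the narrowest, from 9.51 through 9.65 to 9.88, a 1.29-fold span. With 74 means on so short a scale neighbours in the order lie close together, at most 0.13 apart, and no difference was read between them. Between 41 strains (Htr3a) and 65 strains (Htr5a) of the 74 lay within 1 within-strain SD of the median strain.

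**Figure D1:**
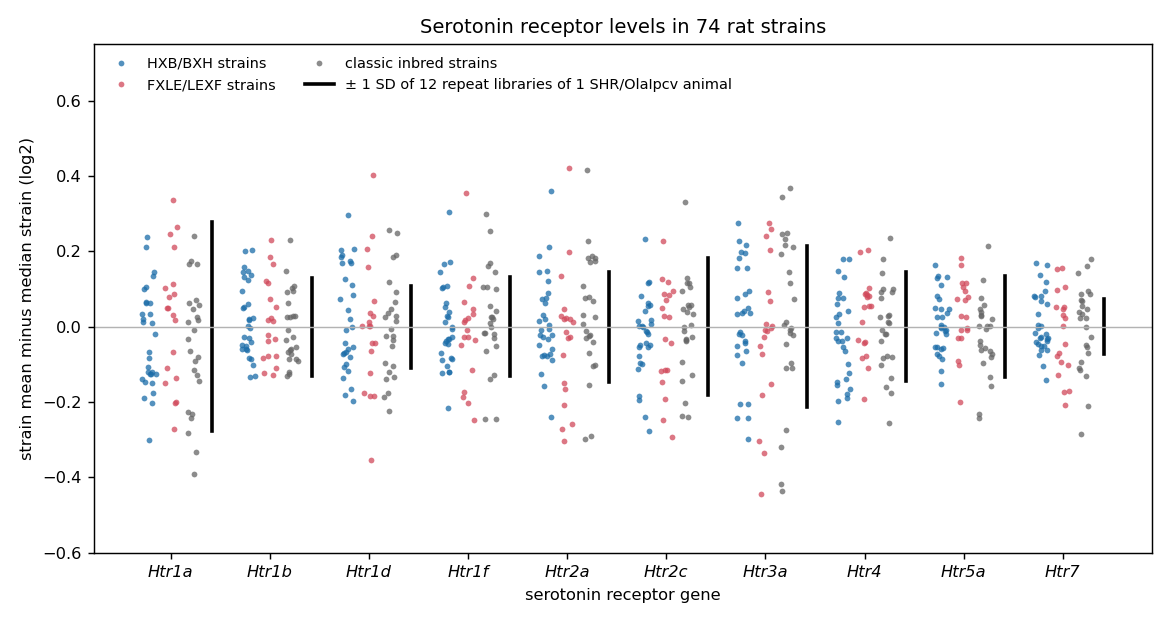
Strain means of the 10 serotonin receptors as log2 differences from the median of 74 strains, 1 point per strain, coloured by panel, with a bar of ± 1 SD for the 12 repeat libraries of 1 SHR/OlaIpcv animal. The range of the points is widest for Htr3a and narrowest for Htr1b, and for Htr1a the bar of ± 0.28 exceeds the SD of 0.16 between strain means.

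Repeat libraries of the SHR/OlaIpcv animals show the spread between single libraries of 1 animal, while a strain mean averages up to 3 animals. Across the 12 libraries of SHR/OlaIpcv animal 1, Htr1a ran from 6.66 through 7.31 to 7.52 (SD 0.28), and across the 6 of animal 4 from 7.00 through 7.23 to 7.58 (SD 0.20), both wider than the SD of 0.16 between the 74 strain means. Htr3a ran from 6.99 through 7.56 to 7.73 in the libraries of animal 1 (SD 0.21) and from 7.41 through 7.60 to 7.76 in those of animal 4 (SD 0.15), on either side of the SD of 0.19 between strain means. For Htr7 the repeats ran from 8.46 through 8.58 to 8.70 (SD 0.07) and from 8.47 through 8.59 to 8.73 (SD 0.10), beside an SD of 0.10 between strain means. The repeats were sequenced in different batches, so their spread holds batch differences as well as library differences.

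The question of how far a receptor's level differs by strain was addressed by R2, the share of the variance over animals that lies between strains, and by limma's moderated F-test adjusted over all 20859 genes. R2 is not corrected for the number of strains, so it lies above 0 even without a strain effect. It is therefore read beside the median R2 of all genes. Over 197 animals, 7 of the 10 receptors were called at 5% FDR, where 37.3% of all genes were. The median R2 of the 10 was 0.493, and that of all genes was 0.451. The receptor with the highest R2 was Htr3a, at 0.682 (adjusted p = 1.93e-09), which exceeded the R2 of 95.1% of genes. It was followed by Htr1d at 0.590 (adjusted p = 5.39e-05), Htr4 at 0.527 (adjusted p = 0.00478) and Htr7 at 0.507 (adjusted p = 0.0157). The other called receptors were Htr2a (0.494), Htr1b (0.493) and Htr1f (0.482), with adjusted p-values from 0.0213 to 0.0368. Htr1a (R2 0.464, adjusted p = 0.0641), Htr2c (0.432, adjusted p = 0.171) and Htr5a (0.391, adjusted p = 0.413) were not called. Htr3a and Htr1d were the only receptors called when all animals numbered 1, or all numbered 2, were left out. In those fits 3316 and 3003 of the 20859 genes were called, against 7785 with all animals. Replicates here are separate animals of 1 strain as far as the labels say.

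Within the panels fewer receptors passed. In the HXB/BXH family 3 of 10 were called, Htr1d (R2 0.581, adjusted p = 0.00388), Htr3a (0.561, adjusted p = 0.00708) and Htr4 (0.549, adjusted p = 0.0151), where 19.1% of genes were. No receptor was called in the HXB/BXH family without animals 2 or without animals 3, and 1, Htr1a, without animals 1. Genes called in these fits were 1941, 1722 and 1677 in that order, against 3992 with all animals of the family. Among the 25 classic strains 2 of 10 were called, Htr3a (R2 0.811, adjusted p = 2.99e-07) and Htr7 (0.586, adjusted p = 0.0441), beside 19.3% of genes. Without animals 1, without animals 2 or without SHR/OlaIpcv animal 4, Htr3a alone of the 10 was past the threshold among classic strains. Genes called were then 2171, 1199 and 3584 in that order, against 4029 with all classic animals. In the 19 FXLE/LEXF strains limma called 0 of 10 receptors, where 4.61% of genes were called, and 4 receptors had an unadjusted p below 0.05. The nearest of these to the threshold was Htr2a, with R2 0.707 and adjusted p = 0.0589. The median R2 of all genes was 0.409 in HXB/BXH, 0.516 in FXLE/LEXF and 0.449 among classic strains, and R2 was not compared between panels. Whether a receptor's strain effect differed between panels was not tested.

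**Figure D2:**
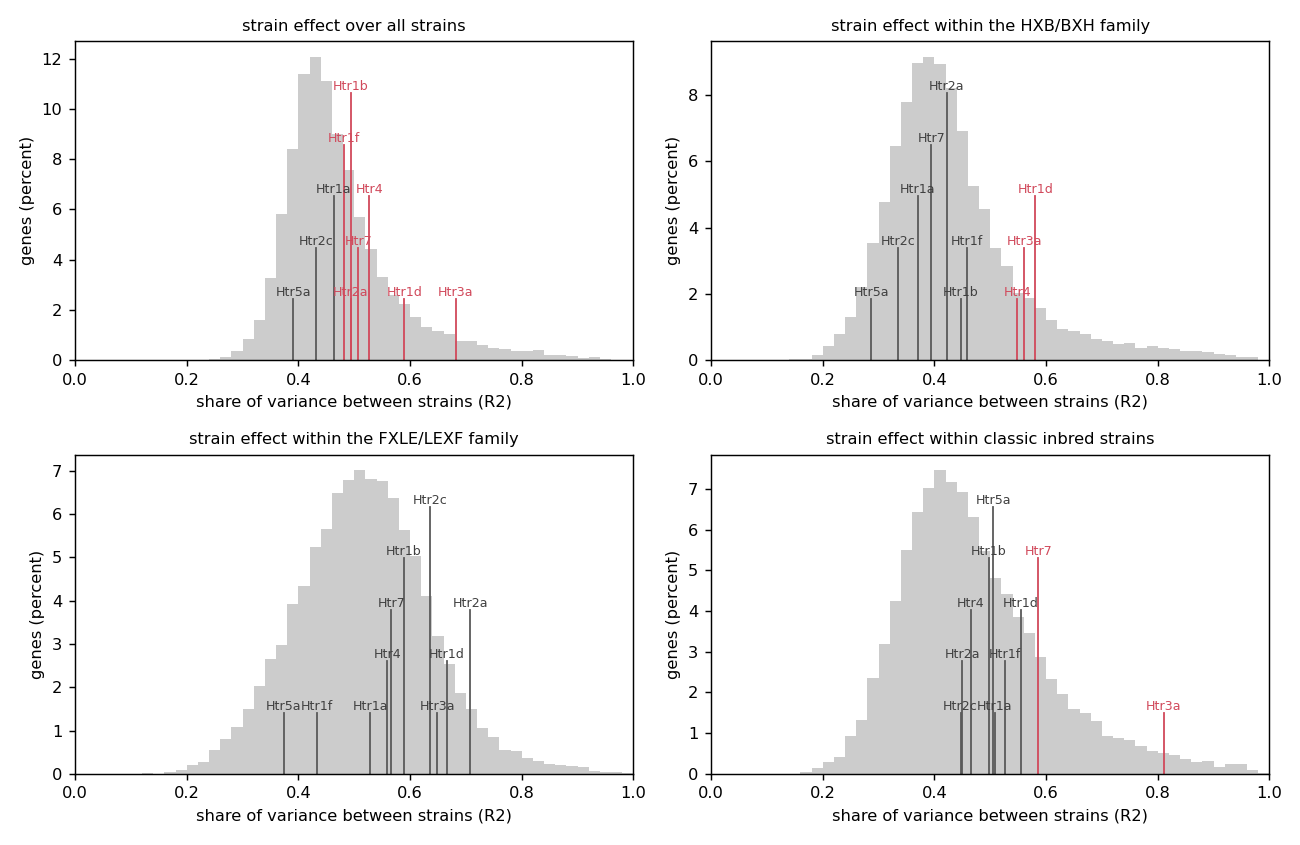
Share of variance between strains (R2, x axis) of all genes as a grey histogram (y axis, percent of genes) and of the 10 receptors as vertical lines, red where the limma F-test called the receptor at 5% FDR, for all strains and for each panel. Line heights only separate the names. Htr3a stands at 0.682 over all strains and at 0.811 among classic strains.

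Htr3a, the subunit needed for a working serotonin-gated channel and known from a class of cortical interneurons, is described first because its R2 was highest. Its lowest strain means were those of LEXF9/Stm (7.03, 1 animal), BUF/MnaMcwi (7.04, 1 animal) and LH/MavRrrc (7.06). The 3 LH/MavRrrc animals gave 7.12, 6.99 and 7.07 and lay close together. The highest means were those of BDIX/NemOdaMcwi (7.84), ACI/SegHsd (7.82) and HXB1/Ipcv (7.75). The 2 BDIX/NemOdaMcwi animals gave 7.85 and 7.84, and the 3 ACI/SegHsd animals gave 7.90, 7.76 and 7.80, so each of these animals was above each LH/MavRrrc animal. These strains were picked for their levels, and the values are a description. The 2 Brown Norway substrains lay far apart, with 6.87, 7.44 and 7.15 in BN-Lx/Cub and 7.64, 7.76 and 7.46 in BN/NHsdMcwi, and their animals did not overlap, which held for 3 of 10 receptors and 18.9% of genes. This pair was singled out after its values were seen. The 2 substrains share no sequencing batch, so substrain and batch cannot be told apart here.

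**Figure D3:**
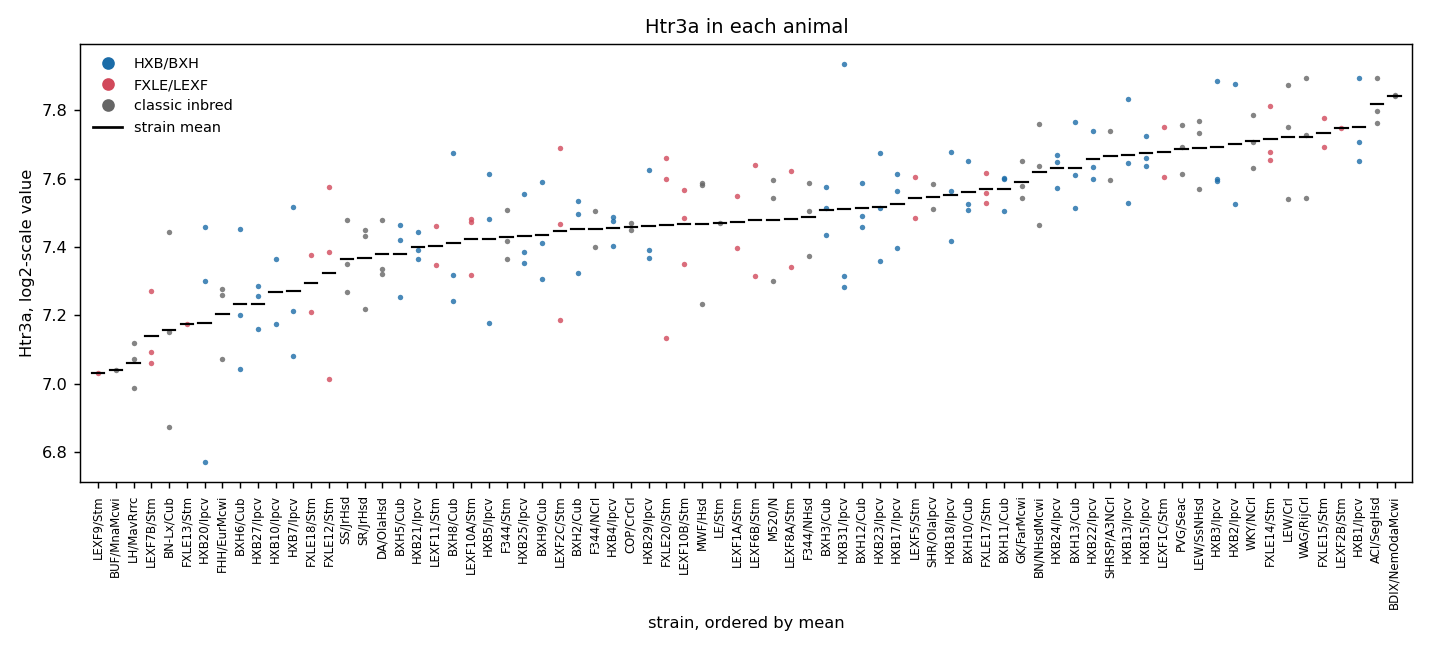
Htr3a in each animal (points, log2-scale value on the y axis), with strains ordered by their mean (black bar) and coloured by panel. Means climb from 7.03 in LEXF9/Stm to 7.84 in BDIX/NemOdaMcwi beside a within-strain SD of 0.15, and animals of 1 strain can lie far apart, as in BN-Lx/Cub from 6.87 to 7.44.

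Among the Gi/o receptors, Htr1d, found on serotonin axon terminals, had the clearest strain effect. Its lowest means were LEXF9/Stm (5.86, 1 animal), SHRSP/A3NCrl (5.99, animals at 5.98 and 5.99) and BXH6/Cub (6.01, animals at 6.06, 5.91 and 6.07). Its highest were FXLE13/Stm (6.61, 1 animal), HXB20/Ipcv (6.51, animals at 6.44, 6.57 and 6.52) and FHH/EurMcwi (6.47, animals at 6.40, 6.51 and 6.49). The strains were picked on these animals, and in animals 3 of strains ranked on animals 1 and 2 the low strains reached 6.49 and the high strains went down to 6.43, so that they overlapped. Both ends of the order hold strains of the HXB/BXH family.

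The other Gi/o receptors had a lower R2. Htr1a, the autoreceptor of raphe neurons that is also dense in the hippocampus, ran from 6.98 in SHRSP/A3NCrl to 7.71 in LEXF1C/Stm, with a median of 7.38. The 2 animals of HXB10/Ipcv, a low strain for Htr1a, gave 7.46 and 6.69, a gap larger than the whole range of strain means. Htr1b, the terminal autoreceptor, ran from 9.51 in HXB22/Ipcv to 9.88 in LEXF5/Stm. Htr1f, a receptor targeted by a migraine drug, ran from 6.00 in FXLE15/Stm to 6.60 in FXLE13/Stm with a median of 6.24. Htr5a, a receptor of forebrain neurons, ran from 7.41 in SHRSP/A3NCrl to 7.86 in BUF/MnaMcwi with a median of 7.65. For each of these 4 receptors the within-strain SD (0.20, 0.13, 0.15 and 0.14) exceeded the SD between strain means (0.16, 0.10, 0.12 and 0.09), as it did for all receptors but Htr3a and Htr1d.

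Of the Gq receptors, Htr2a, the cortical target of classic psychedelics, ran from 9.72 in LEXF1C/Stm through 10.02 to 10.44 in FXLE13/Stm. The highest strain with 3 animals was HXB24/Ipcv, with 10.34, 10.27 and 10.55, and ACI/SegHsd was low in 2 of its animals (9.60 and 9.56) but not in the third (10.02). Htr2c, a receptor of choroid plexus and neurons whose transcript is edited by adenosine deaminases, ran from 11.60 in LEXF1C/Stm through 11.89 to 12.22 in MWF/Hsd. The MWF/Hsd animals gave 12.30, 12.21 and 12.15, and the 2 LEXF1C/Stm animals gave 11.59 and 11.60. These strains were picked as the ends of the order, and the strain effect of Htr2c over all strains did not pass the threshold.

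Of the Gs receptors, Htr4 ran from 7.70 in LH/MavRrrc through 7.96 to 8.19 in LE/Stm. The LH/MavRrrc animals gave 7.78, 7.70 and 7.63, those of the next strain, HXB1/Ipcv, 7.66, 7.78 and 7.67, and the single LE/Stm animal is the one with liver genes. Leaving out strains of 1 animal, the highest mean was 8.16 in FXLE18/Stm (8.24 and 8.08). Htr7, expressed in thalamus and hippocampus, ran from 8.15 in LE/Stm, again the single animal, through 8.44 to 8.62 in MWF/Hsd (8.66, 8.61 and 8.59). SR/JrHsd was next lowest for Htr7 at 8.23, with animals at 8.06, 8.36 and 8.27, all below those of MWF/Hsd.

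Strains of 1 animal, 6.76% of all strains, took 23.3% of the 60 places among the 3 highest and 3 lowest means of each receptor. LE/Stm held 5 of these places (lowest or near it for Htr1a, Htr1f, Htr2a and Htr7, highest for Htr4), FXLE13/Stm held 4, all high (Htr1d, Htr1f, Htr2a and Htr2c), and SHRSP/A3NCrl held 4, all low (Htr1a, Htr1b, Htr1d and Htr5a). The part of the liver genes in the LE/Stm values was not tested. LE/Stm and SHRSP/A3NCrl are among the strains left out in an alternative fit given below. When strains were limited to the 54 with 3 animals, the 9 animals of the 3 lowest and the 9 of the 3 highest strains did not overlap for 7 receptors, all but Htr1a, Htr2a and Htr5a, where the same held for 59.5% of genes. Since the strains were ranked on these animals, separation was also read in animals not used for ranking. With strains ranked on animals 1 and 2, the mean of the third animals was higher in the 3 high strains than in the 3 low strains for 10 of 10 receptors, beside 75.9% of genes. The third animals did not overlap for 2 receptors, Htr3a and Htr2c, beside 20.8% of genes. For Htr3a they lay between 7.07 and 7.46 in the low strains HXB20/Ipcv, LH/MavRrrc and BN-Lx/Cub and between 7.54 and 7.80 in the high strains HXB1/Ipcv, LEW/Crl and ACI/SegHsd. The LEW/Crl animals are among those low in Y genes.

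The question of how the receptors segregate in the recombinant families was addressed by setting the strain means of a family beside those of its progenitors. For Htr3a, 19 of the 30 HXB/BXH strains lay between BN-Lx/Cub (7.16) and SHR/OlaIpcv (7.55), 11 lay above both and 0 below. For Htr1f 15 lay between them, 14 below both and 1 above. For some receptors most strains lay outside the progenitors, with 28 of 30 above both for Htr5a, 25 above both for Htr4, 24 above both for Htr1a and 22 below both for Htr7. Htr1d had strains on each side, 13 below and 14 above the progenitors (6.16 and 6.23), with strain means from 6.01 to 6.51. The progenitor means of these receptors lay within 0.14 log2 units of each other, in each case less than the within-strain SD. In the FXLE/LEXF family, 15 of 19 strains lay between F344/Stm and LE/Stm for Htr2a (10.09 and 9.73) and for Htr1f (6.35 and 6.00), and 9 of 19 for Htr7 with the other 10 above both. For Htr3a, with progenitors at 7.43 and 7.47, 3 strains lay between them, 7 below both and 9 above both. All the LE/Stm values rest on 1 animal, the one with high liver genes. The F344/Stm and LE/Stm libraries share no sequencing batch with any FXLE/LEXF strain. Positions of these strains relative to their progenitors therefore cannot be told apart from batch.

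**Figure D4:**
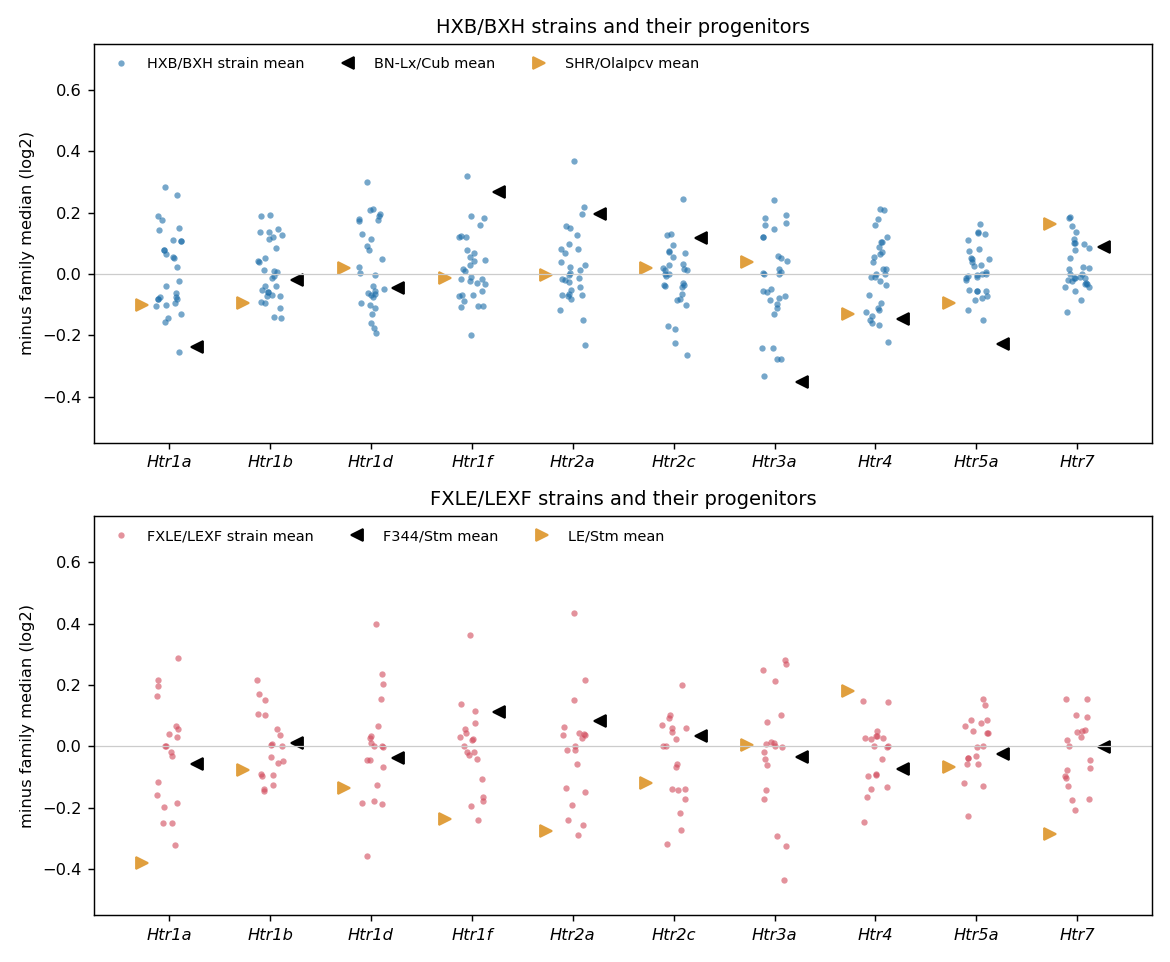
Strain means of each receptor in the HXB/BXH family (upper panel) and the FXLE/LEXF family (lower panel), as log2 differences from the family median, with the means of the progenitor strains as triangles. BN-Lx/Cub lies below every HXB/BXH strain for Htr3a and Htr5a, and LE/Stm lies below every FXLE/LEXF strain for Htr1a and Htr7. F344/Stm and LE/Stm share no sequencing batch with the FXLE/LEXF strains.

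Normal mixtures of 1 to 3 clusters were fitted to the strain means of a family to see whether they fell into separate levels. In the HXB/BXH family 2 of 10 receptors were best described by 2 clusters, where 11.7% of genes had more than 1. For Htr1d these were 18 strains at 6.13 and 12 strains at 6.37, with a gain of 1.17 in the Bayesian information criterion (BIC) over 1 cluster. For Htr7 they were 20 strains at 8.40 and 10 strains at 8.54, with a gain of 0.25. Both gains were small, and under a rule that asks for a gain above 6 neither receptor had 2 clusters. In the FXLE/LEXF family 0 of 10 receptors had more than 1 cluster, where 14.7% of genes did.

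Pairs of strains were then compared by contrasts in the fit over all 197 animals, and no receptor was called in any of the 4 pairs. Between BN-Lx/Cub and SHR/OlaIpcv 4.51% of genes were called and 0 of 10 receptors, with 2 receptors at an unadjusted p below 0.05. Htr3a was 0.39 lower in BN-Lx/Cub on the log2 scale (log2 difference -0.39, SE 0.14, interval of ± 2 SE from -0.67 to -0.11, limma adjusted p = 0.0859), with 6.87, 7.44 and 7.15 against 7.51 and 7.58. All 3 BN-Lx/Cub animals were below both SHR/OlaIpcv animals. Within each of the 3 batches that hold both strains Htr3a was also lower in BN-Lx/Cub, by log2 differences of -0.57 to -0.36. These batches are repeat runs of few animals, with SHR/OlaIpcv animal 1 in each and BN-Lx/Cub animal 3 in 2 of them. Adding batch to the model gave -0.51 (adjusted p = 0.000431), and that model called 16.8% of genes. That model takes libraries rather than animals as values, so the 12 and 6 repeat libraries of the 2 SHR/OlaIpcv animals enter singly. Libraries of 1 animal are given a common correlation of 0.20. Leaving out animals 2 removed the BN-Lx/Cub animal nearest to SHR/OlaIpcv (7.44) and no SHR/OlaIpcv animal. The difference was then -0.54 and called (adjusted p = 0.0395, beside 3.91% of genes). It lay at 0.02 in the authors' v5 table, an earlier quantitation of 45 strains against Ensembl genes, where it was not called. Htr1f was 0.28 higher in BN-Lx/Cub (SE 0.14, interval from 0.00 to 0.56, adjusted p = 0.247), with 6.69, 6.47 and 6.34 against 6.20 and 6.23, so that the animals did not overlap. Animals of this pair did not overlap for 4 of 10 receptors and 38.9% of genes. The other 8 receptors differed by -0.14 to 0.20. Within the 3 shared batches Htr4 (-0.38 to -0.03), Htr5a (-0.34 to -0.09) and Htr7 (-0.22 to -0.06) were lower in BN-Lx/Cub each time. Htr1f was higher there each time (0.09 to 0.35), and Htr1a, Htr1b, Htr1d, Htr2a and Htr2c changed sign between these batches.

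In the single LE/Stm animal liver genes such as Alb stood highest of all strains. Their part in its receptor values was not tested. The F344/Stm and LE/Stm contrast rests on this animal, which is assumed to vary as animals of other strains do. It called 0.796% of genes and 0 of 10 receptors. Htr2a, Htr1f, Htr1a and Htr7 were 0.36, 0.35, 0.32 and 0.28 higher in F344/Stm, with adjusted p-values from 0.383 to 0.479, and Htr1f and Htr7 had an unadjusted p below 0.05. Htr4 was lower in F344/Stm, by a log2 difference of -0.25 (adjusted p = 0.428), with 8.03, 7.87 and 7.92 against 8.19. Htr3a differed by -0.04 (interval from -0.39 to 0.31).

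The hypertensive SHR/OlaIpcv and the normotensive WKY/NCrl, of shared origin, gave 0.825% of genes and 0 of 10 receptors. Htr7 was 0.25 higher in SHR/OlaIpcv (SE 0.11, adjusted p = 0.414), with 8.58 and 8.58 against 8.21, 8.35 and 8.43, and was the only receptor with an unadjusted p below 0.05. Animals of this pair did not overlap for 5 of 10 receptors, Htr7 among them, and 40.5% of genes. The 2 batches that hold both strains, each with a library of SHR/OlaIpcv animal 1, gave differences from -0.70 to -0.53 for Htr1a, from -0.65 to -0.29 for Htr3a, from 0.21 to 0.40 for Htr7 and from 0.25 to 0.41 for Htr1d. They gave 0.16 to 0.25 for Htr1b and 0.18 to 0.26 for Htr5a, against 0.04 and -0.03 in the fit without batch. With batch as a covariate 4 receptors were called between the strains, Htr1a (-0.49, adjusted p = 0.0255), Htr3a (-0.42, adjusted p = 0.0102), Htr1d (0.33, adjusted p = 0.0370) and Htr7 (0.38, adjusted p = 0.00422), where 20.9% of all genes were called. That fit takes each library of the 2 SHR/OlaIpcv animals as a value of its own, with a common correlation of 0.20 between libraries of 1 animal. By the study's methods the 2 strains also differ in the source and storage of their brains. Neither the fit without batch nor that with batch separates these from strain. SHR/OlaIpcv was also the highest strain for the blood genes Hbb, Alas2 and Slc4a1, and over all strains Htr1b was the receptor called against the blood list (r = -0.32, rho = -0.35, permutation p = 0.00489 and 0.00216, adjusted p = 0.0359 and 0.0311), with -0.38 without 2 strains and -0.41 to -0.35 within panels.

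F344/NHsd and LEW/SsNHsd, which are often set against each other for stress reactivity, each had 3 animals in 1 shared batch. Of all genes 0.959% were called and of the receptors 0 of 10. Htr1d was lower in F344/NHsd (log2 difference -0.30, SE 0.12, adjusted p = 0.419), with 6.08, 6.11 and 6.12 against 6.52, 6.21 and 6.47, and no animal overlapped. Htr1a was 0.29 higher in F344/NHsd (adjusted p = 0.964), with 7.62, 7.56 and 7.47 against 7.29, 7.23 and 7.27, also without overlap, and these were 2 of 10 receptors, beside 14.7% of genes, that did not overlap. Htr5a and Htr7 differed by 0.00, with intervals from -0.23 to 0.23 and from -0.19 to 0.19.

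Receptors were next set against each other across the 74 strain means, with Pearson's r and Spearman's rho, permutation tests (100000 permutations, two-sided) and Benjamini-Hochberg adjustment over the 45 pairs. The permutations treat strains as exchangeable, although strains of a recombinant family share progenitors. Of the 45 pairs, 9 were called, all positive. How often pairs of other genes would be called was not tested, so this count is not read as particular to receptors. The strongest joined Htr2a and Htr1f (r = 0.60, rho = 0.49, permutation p = 1e-05, the smallest these permutations give, and p = 2e-05, adjusted p = 0.00015 and 0.00045). Without the 2 strains farthest from the median of Htr2a, FXLE13/Stm and BUF/MnaMcwi, r was 0.59, and within panels it was 0.45 in HXB/BXH, 0.82 in FXLE/LEXF and 0.51 among classic strains. Htr2c joined Htr1b (r = 0.50, rho = 0.49, permutation p = 1e-05 and 2e-05, adjusted p = 0.00015 and 0.00045) and Htr7 (r = 0.49, rho = 0.45, permutation p = 1e-05 and 5e-05, adjusted p = 0.00015 and 0.00075). For Htr2c with Htr1b, r was 0.43 without 2 strains and 0.32 to 0.68 within panels, and for Htr2c with Htr7 it was 0.47 and 0.41 to 0.63. Htr1b and Htr2a also moved together (r = 0.43, rho = 0.44, permutation p = 0.00016 and 0.00013, adjusted p = 0.0018 and 0.00146), with r = 0.41 without 2 strains and 0.25 to 0.58 within panels. The 5 other called pairs had r from 0.31 to 0.40, and within the HXB/BXH, FXLE/LEXF and classic strains 2, 8 and 1 of the 45 pairs were called. For Htr1a with Htr5a (r = 0.40), r was -0.0023 after removal of batch. With batch removed from the strain means 33 of the 45 pairs were called, 21 of them positive. Strains that share a batch then share the error of its estimate, which the permutations do not allow for, so this rise was not read. With the leading axis of the variation between animals of 1 strain removed, 6 pairs were called. Among Htr1b, Htr1f, Htr2a and Htr2c, r then ran from 0.14 (Htr2a with Htr2c) to 0.52 (Htr2a with Htr1f). Within HXB/BXH, r of Htr1f with Htr2c was 0.03.

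**Figure D5:**
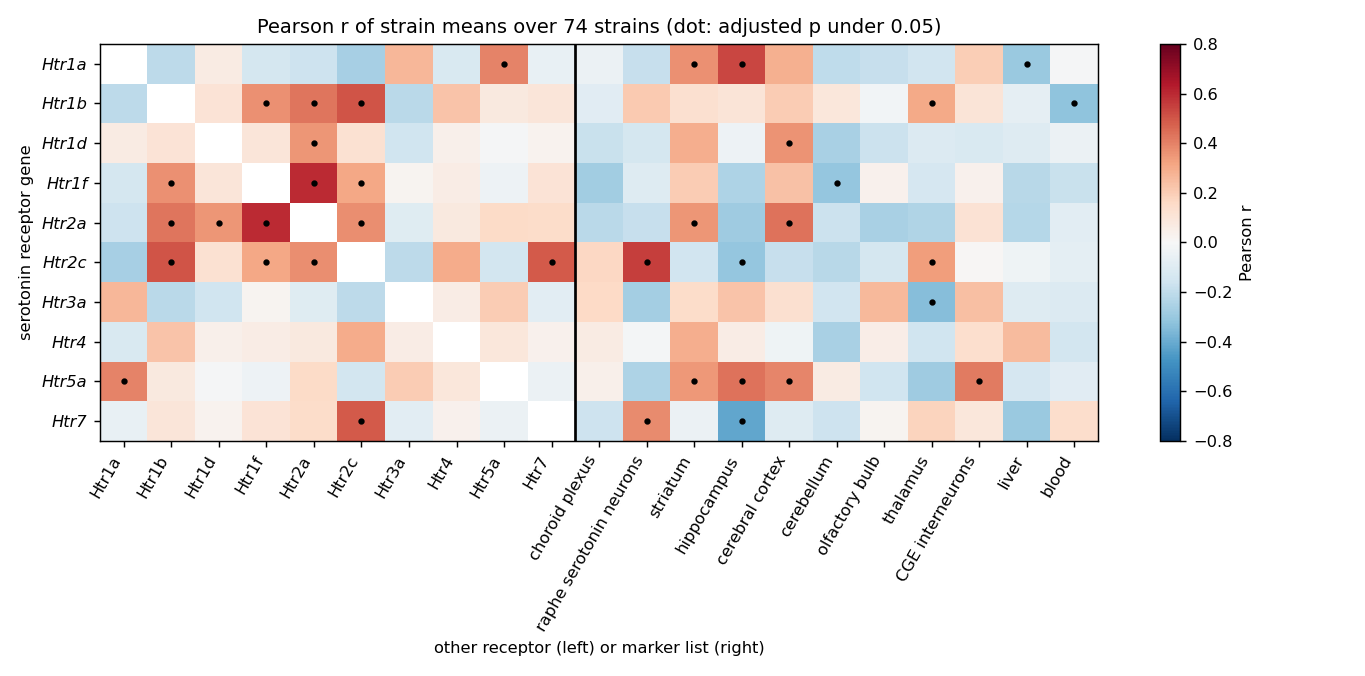
Pearson r over 74 strain means between each receptor (rows) and the other receptors (left columns) or the mean of a marker list (right columns), on a colour scale from -0.8 to 0.8, with a dot where the adjusted permutation p is below 0.05. The block of Htr1b, Htr1f, Htr2a and Htr2c is positive throughout. Removal of the leading axis of the variation between animals of 1 strain lowered r in each of its pairs.

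Since several of these receptors moved together, the RefSeq promoters of the members (build GRCr8, 250 bases before to 50 after the gene start, given on the gene's strand) were searched for 5 motifs on both strands. Promoters were given for 6 of the 10 genes, Htr1b, Htr1d, Htr1f, Htr2c, Htr5a and Htr7. Those of Htr1d, the called receptor with a promoter and the highest R2, and of Htr2c with its 2 correlated partners Htr1b and Htr7, are shown here for chr5:153939485-153939784 (plus strand), chr8:91414766-91415065 (minus strand), chrX:115452940-115453239 (plus strand) and chr1:243172999-243173298 (minus strand), in the order Htr1d, Htr1b, Htr2c, Htr7. Capitals mark motif letters, GGGCGG for the GC box and CCAAT or its reverse complement ATTGG for the CCAAT box.
Htr1d: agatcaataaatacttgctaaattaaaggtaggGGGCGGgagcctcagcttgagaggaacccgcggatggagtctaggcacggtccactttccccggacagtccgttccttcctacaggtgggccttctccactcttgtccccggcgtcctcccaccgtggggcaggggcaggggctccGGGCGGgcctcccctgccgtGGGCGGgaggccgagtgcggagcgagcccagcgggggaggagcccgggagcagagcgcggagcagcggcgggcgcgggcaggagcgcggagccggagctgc
Htr1b: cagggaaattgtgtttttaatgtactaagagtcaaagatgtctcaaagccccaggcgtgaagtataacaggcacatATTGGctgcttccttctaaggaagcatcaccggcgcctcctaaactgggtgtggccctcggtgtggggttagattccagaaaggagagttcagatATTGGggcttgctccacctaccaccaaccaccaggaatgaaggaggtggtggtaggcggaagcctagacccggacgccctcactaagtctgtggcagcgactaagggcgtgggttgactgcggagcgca
Htr2c: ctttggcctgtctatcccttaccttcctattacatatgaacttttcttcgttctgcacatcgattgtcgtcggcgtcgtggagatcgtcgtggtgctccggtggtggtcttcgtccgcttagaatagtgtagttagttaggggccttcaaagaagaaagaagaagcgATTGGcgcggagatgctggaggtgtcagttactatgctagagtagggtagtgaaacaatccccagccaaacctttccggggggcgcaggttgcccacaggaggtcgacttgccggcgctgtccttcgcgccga
Htr7: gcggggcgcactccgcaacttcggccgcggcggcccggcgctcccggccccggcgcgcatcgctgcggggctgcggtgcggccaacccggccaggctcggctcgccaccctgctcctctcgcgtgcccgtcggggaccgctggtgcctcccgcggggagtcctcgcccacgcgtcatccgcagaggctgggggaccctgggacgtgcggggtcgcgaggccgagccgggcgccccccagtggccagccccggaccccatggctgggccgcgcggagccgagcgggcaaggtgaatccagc

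The Htr1d promoter held 3 GC boxes, a motif found in 33.1% of 33469 promoters of the same length, and that of Htr5a held 1. The CCAAT box, present in 37.5% of promoters, was found at 2 places in Htr1b, at 2 in Htr1f and at 1 in Htr2c. The TATA box TATAAA (14.2% of promoters), the cAMP response element TGACGTCA (1.83%) and the E-box CACGTG (6.42%) were in none of the 6, and none of the 5 motifs was in the Htr7 promoter. No match says only that these letters are not in this window. Of the correlated genes, Htr1b and Htr2c thus both held a CCAAT box and Htr7 did not. The GC content of these promoters was 53.7% (Htr2c), 53.7% (Htr1b) and 79.7% (Htr7), beside a median of 51.7% over all promoters.

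Since each of these receptors is dense in some brain regions and sparse in others, strain means were also set against the mean of 11 marker lists for regions and cell types, with 110 pairs tested. Of these, 19 were called by r, 13 of them positive, and 15 by rho. How often other genes would be called against these lists was not tested. Htr2c followed the list of raphe serotonin neurons (Tph2, Slc6a4 and others, r = 0.55, rho = 0.48, permutation p = 1e-05 and 2e-05, adjusted p = 0.00055 and 0.0022), with r = 0.50 without 2 strains and 0.46 to 0.63 within panels. Htr7 followed the same list (r = 0.38, rho = 0.35, permutation p = 0.00084 and 0.00238, adjusted p = 0.0115 and 0.0311), with 0.33 without 2 strains. Htr1a followed the hippocampal list (r = 0.54, rho = 0.46, permutation p = 1e-05 and 8e-05, adjusted p = 0.00055 and 0.00367), with r = 0.46 without 2 strains and 0.28 to 0.81 within panels, but r was 0.19 after removal of the leading axis of the variation between animals of 1 strain. Htr7 ran against that list (r = -0.42, rho = -0.34, permutation p = 0.00017 and 0.00311, adjusted p = 0.00374 and 0.0311), with -0.37 without 2 strains and -0.56 to -0.22 within panels. Htr2a followed the list of the cerebral cortex (r = 0.43, rho = 0.42, permutation p = 0.00014 and 0.00022, adjusted p = 0.00374 and 0.00605), with 0.33 without 2 strains and 0.39 to 0.60 within panels.

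For Htr5a the lists of hippocampus (r = 0.44), CGE interneurons (0.41), cerebral cortex (0.39) and striatum (0.35) were all called by Pearson's r, and the first 3 also by rho (the striatum had an adjusted p of 0.0848 by rho). The r of Htr5a was 0.22 with the hippocampus after removal of the leading axis, 0.15 with CGE interneurons after removal of batch, and -0.0162 with the striatum within FXLE/LEXF. By rho Htr5a was also called against the raphe list (r = -0.25, rho = -0.33, adjusted p = 0.113 and 0.0328) and the thalamus (r = -0.29, rho = -0.34, adjusted p = 0.0610 and 0.0311). Htr1a was called against the striatum (r = 0.37, rho = 0.33, adjusted p = 0.0165 and 0.0328), with r of 0.78 among classic strains, 0.26 in FXLE/LEXF and -0.28 in HXB/BXH. The other calls by r, from -0.31 to 0.36, were Htr1d with the cortex, also called by rho, and Htr2a with the striatum, Htr2c and Htr1b with the thalamus, Htr2c with the hippocampus and Htr1f with the cerebellum, which were not. Htr1a was called against the liver list by r (-0.30, adjusted p = 0.0369) and not by rho (-0.16). Its r was -0.13 without LE/Stm and HXB10/Ipcv, -0.53 with batch removed and -0.36 with the axis removed. Within panels r was -0.43 (HXB/BXH), 0.29 (FXLE/LEXF) and -0.35 (classic). All of these but the first and the FXLE/LEXF value include 1 or both of those strains. Htr3a, the receptor with the highest R2, was called by r against 1 list only, the thalamus (r = -0.34, rho = -0.25, adjusted p = 0.0238 and 0.134), and Htr4 against 0 of 11 by r. By rho Htr4 was called against the striatum (r = 0.29, rho = 0.35, adjusted p = 0.0602 and 0.0311) and the cerebellum (r = -0.26, rho = -0.32, adjusted p = 0.0921 and 0.0396), and Htr3a against none. By either measure no receptor was called against the choroid plexus list, Htr2c included, or the olfactory bulb list. Correlations within panels were called for 2 (HXB/BXH), 1 (FXLE/LEXF) and 3 (classic) of the 110 pairs.

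A single axis held 23.1% of the variance between animals of 1 strain over all genes, and several receptors varied along it. Across strain means, the r with this axis was -0.61 for Htr1a, 0.53 for Htr2a, 0.50 for Htr2c, -0.48 for Htr3a and -0.42 for Htr5a, where the median absolute r of all genes was 0.33. Htr1f (0.35), Htr1b (0.31), Htr7 (0.27) and Htr1d (0.20) came lower, and Htr4 was nearly free of the axis (-0.03). The receptors thus lay on both sides of the median of all genes. What the axis stands for was not tested. With the axis as a covariate, an alternative chosen after seeing the data, Htr1a joined the called receptors over all strains (R2 0.556, adjusted p = 0.000578), 8 of 10 beside 49% of genes, and 7 of 10 were called among classic strains beside 40.1% of genes.

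The genes most like each receptor across the 74 strain means, among genes with a mean above the table's median, are given as a description. Htr2a was most like Arpp19, a cyclic AMP-regulated phosphoprotein (r = 0.85), Kcnh7, a potassium channel (0.84), and Robo2, an axon guidance receptor (0.83). Htr2c was most like Tmem255a (0.84), Smim17 (0.78) and RGD1311744 (0.78), and the last of these was also nearest to Htr7 (0.59), followed by Tspyl5 and Nudt11 (0.58 each). Htr1a was most like Npdc1 (0.75), the vesicular zinc transporter Slc30a3 (0.74) and the ephrin receptor Ephb6 (0.73). Htr1b was most like Pcdh17, a protocadherin (0.69), Ptchd1 and Tsc22d2 (0.67 each). Htr3a was most like the synaptotagmin Syt5 (0.65), Qsox1 and the actin-binding Coro1a (0.61 each). For Htr5a these genes were Brinp1, the cadherin Celsr2 and Nipal3 (0.65 to 0.64), and for Htr1f they were Vstm2a, the synaptic vesicle gene Synpr and Htr2a itself (0.62 to 0.60). Htr1d and Htr4 had no close match, with the potassium channel Kcnk2 at 0.52 and the ephrin receptor Epha4 at 0.48 for Htr1d, and the vesicular polyamine transporter Slc18b1, Slc7a3 and Sntg1 at 0.51 to 0.47 for Htr4.

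At the transcript level, 14 RefSeq transcripts were matched to 9 of the 10 receptors, all but Htr1d, and 1 was called over all strains, where 13.9% of 45991 transcripts were. The called one was the curated transcript of Htr3a (R2 0.622, adjusted p = 1.32e-05), which followed the gene value closely (r = 0.94). The curated transcripts of Htr1a, Htr1f and Htr5a tracked their gene at r of 0.99 to 1.00 and missed the threshold. The curated Htr2a transcript did not track its gene (r = -0.08) and fell to 2.84 in FXLE13/Stm, the strain with the highest Htr2a gene value, against a mean of 6.15. That strain has 1 animal. The only matched transcripts of Htr2a and Htr1b had means of 6.15 and 6.67, far under the gene means of 10.03 and 9.66. What makes up the rest of these gene values was not tested.

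The genes that make, move and break down serotonin were called over all strains in 3 of 10 cases. Ddc, which makes serotonin from its precursor, had R2 0.634 (adjusted p = 4.74e-07) and strain means from 8.04 in SR/JrHsd to 9.02 in PVG/Seac. The vesicular transporter Slc18a2 (R2 0.488, adjusted p = 0.0219) and the uptake transporter Slc22a3 (0.480, adjusted p = 0.0415) were the others. Tph2, the rate-limiting enzyme in neurons, spanned 6.87 in BXH13/Cub to 9.00 in BXH2/Cub without passing (R2 0.455, adjusted p = 0.0753), and the serotonin transporter Slc6a4 spanned 5.34 to 7.67 (adjusted p = 0.123). These spans exceed those of any of the 10 receptors. Tph1, Gch1, Maoa, Maob and Slc29a4 had R2 from 0.347 to 0.459 and were not called.

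Of the other serotonin receptors, Htr6, a Gs receptor, was called (R2 0.529, adjusted p = 0.00315), Htr5b was not (adjusted p = 0.239), and Htr2b had a mean of 0.89 and was not called (adjusted p = 0.721). Downstream of the receptors, 4 of 11 Gi/o genes were called, with Rgs4, which speeds the shut-off of G proteins, at R2 0.576 and the potassium channel subunits Kcnj3 and Kcnj6 at 0.548 and 0.545. Of the Gq genes 4 of 9 were called, among them Rgs2 (0.518) and the protein kinase C gene Prkcb (0.493). Of the Gs genes 4 of 9 were called, led by the phosphodiesterase Pde4b (0.556), the G protein Gnal (0.555) and the cyclase Adcy8 (0.528). Among receptor partners and RNA editing genes 5 of 10 were called, with S100a10, a partner of Htr1b and Htr4 at the membrane, at R2 0.701 (adjusted p = 1.18e-10), the scaffold Mpdz at 0.566 and the chaperone Ric3 at 0.556. The share of all genes called in this fit was 37.3%.

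Genes of the marker lists had mean levels of 12.05 for Penk (striatum), 12.92 for Nptx1 (hippocampus) and 11.77 for Lamp5 (cortex). Cbln3 of the cerebellum list was at 9.73 and Slc17a6 of the thalamus list at 11.60. A level alone does not show how much of a region a sample holds. Beside the 37.3% of all genes called over all strains, those of the lists numbered 7 of 8 for the striatum, 5 of 8 for the olfactory bulb, 5 of 9 for CGE interneurons (the class in which Htr3a is found), 3 of 6 for raphe serotonin neurons, 3 of 8 for the hippocampus, 3 of 10 for the choroid plexus, 2 of 8 for the cortex, 2 of 8 for the cerebellum, 1 of 7 for the thalamus, 8 of 8 for liver and 4 of 4 for blood. Of the 8 liver genes, 8 were called among classic strains, which include the single LE/Stm animal, and 0 in HXB/BXH and 0 in FXLE/LEXF. The part of these regions and cell types in the receptors' strain effects was not tested.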

How the data were processed

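Total RNA of whole brain was sequenced after ribosomal RNA depletion. Per the labels and the study's methods, the authors estimated counts per gene with RSEM from trimmed reads and deposited them on a log2 scale (regularized log of DESeq2). For the v5 table the authors also removed 1 factor of unwanted variation. These steps are not given in the sources used here for the v6 and v7.1 tables, beyond the submitters' processing notes, which name cutadapt 1.9.1, Bowtie2 2.3.4.3 and 2.4.5, HISAT2 2.1.0 and 2.2.1, StringTie 1.3.5 and 2.2.1, RSEM 1.3.1 and 1.3.3 and DESeq2. The values are not divided by gene length, and the depth of each library cannot be read back from them, so depth is unknown and no counting interval could be given. Library medians lay between 8.19 and 8.42.

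The v7.1 RefSeq gene table was the main source. It has no column for 18 of the 232 labelled samples, 73 spike-in features were left out, and 5 values over 30 were kept. Libraries of 1 animal were averaged, the animal was the replicate and the strain the group. Strain effects and contrasts were fitted in limma 3.58.1 (R 4.3.3) without covariates and adjusted by Benjamini-Hochberg over all genes, with calls at 5% FDR. The fit over all strains shares 1 estimate of spread, and panels were also fitted alone. Mixtures of 1 to 3 clusters were fitted to strain means with mclust 6.1.1. Correlations used Python 3.11.15 with scipy 1.17.1 and 100000 permutations. The fits and mixtures were tested on simulated data. Alternatives were other tables, batch, replicate number and a leading axis as covariates, an intensity trend, filters, and omission of replicates, strains or animals. The annotation of the v7.1 brain reconstruction was used to give gene symbols to features of the v5, v6 and reconstructed tables. Tables of strain means, the v5 and v6 reconstructions and the other annotation files were not used.

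The 10 receptors, the gene lists and the strain pairs were chosen with earlier results of these data known. Genes are named by rule: the receptors, the serotonin lists, the 3 highest R2 past 5% FDR in other lists, and the 3 genes most like each receptor. Some genes that the rule names are not reported here. Strains named are the 3 highest and 3 lowest means and the progenitors. Promoters came from RefSeq (GRCr8).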

Additional observations from a re-analysis of the deposited data

How the results depend on the processing

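Counts of called receptors moved with the processing, as did the counts over all genes given below, and the cause was not tested. With batch, the leading axis, the intensity trend and the v6 table, the 7 receptors called over all strains became 9, 8, 6 and 5. They became 3 in the reconstructed genes and 2 to 7 when each replicate number was left out, with 2 without animals 1 or 2. In the reconstructed genes a symbol went only to its feature of highest mean. Htr1f had 11 features there, Htr4 had 6, Htr7 had 3, and Htr1b, Htr1d and Htr3a had 2 each. In HXB/BXH the 3 called receptors became 0 in the reconstructed genes and 0 to 3 without a replicate. In FXLE/LEXF the 0 became 1 with batch as a covariate, 1 with the intensity trend and 3 in the v6 table, which holds 5 of these strains. Among classic strains the 2 became 6 with batch, 7 with the leading axis, 4 in the v5 table, 1 to 3 without a replicate and 1 under each of the intensity trend, 1 library per animal, the reconstructed genes, the v6 table and omission of LE/Stm, LEW/Crl, F344/NCrl and SHRSP/A3NCrl. Htr3a was called over all strains and among classic strains in all 15 alternatives, with adjusted p from 4.70e-13 to 0.00226 and from 9.46e-11 to 0.0152. Htr1d was called over all strains in 13 of 15.

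The replicate numbers did not pair the samples: deviations of same-numbered animals had a mean r of 0.0097 over 53 strains, against -0.0048 for other numbers, and the lowest was -0.72. With the replicate block 7, 3, 0 and 1 receptors were called over all strains, in HXB/BXH, in FXLE/LEXF and among classic strains, where Htr7 was lost, and 0 in each strain pair. Over all strains, in HXB/BXH, in FXLE/LEXF and among classic strains 7985, 3983, 902 and 3634 genes were called. Called genes went from 940 to 410 between BN-Lx/Cub and SHR/OlaIpcv and from 172 to 98 between SHR/OlaIpcv and WKY/NCrl.

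For strain pairs, 0 receptors became 1 with batch and 0 to 1 without a replicate (BN-Lx/Cub and SHR/OlaIpcv), 1 in the v5 table (F344/Stm and LE/Stm), 4 with batch, 1 in the reconstructed genes and 2 in the v5 table (SHR/OlaIpcv and WKY/NCrl), and 1 in the v5 table (F344/NHsd and LEW/SsNHsd). Htr3a between F344/Stm and LE/Stm was 0.39 in the v5 table, where it was called, against -0.04. Of the 40 differences 28 changed sign in at least 1 alternative. A lone animal is assumed to vary like others.

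Modality counts in HXB/BXH went from 2 to 0 when the BIC had to gain more than 6, to 0 in the v6 table and to 0 to 1 without a replicate. In FXLE/LEXF they went from 0 to 0 to 1. Of pairs of receptors and lists, 64 were called after removal of batch, against 19, with 2, 1 and 3 within HXB/BXH, FXLE/LEXF and classic strains. Of receptor pairs 33 were called after removal of batch, against 9, with 2 within HXB/BXH and 1 among classic strains. Neither rise after removal of batch was read, since the permutations do not allow for batch error shared between strains. The sign of r turned for Htr1a and striatum within HXB/BXH (-0.28), Htr1a and liver within FXLE/LEXF (0.29), Htr1f and cerebellum without batch (0.17), Htr2c and hippocampus without the axis (0.068), Htr5a and striatum within FXLE/LEXF (-0.0162) and Htr1a and Htr5a without batch (-0.0023).

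The v5 and v6 tables hold 18309 and 18644 genes, against 20859. Called genes over all strains were 14681 with batch, 10222 with the axis and 7863 with the trend, against 7785. They were 6028 in v6, 3003 to 7345 without a replicate and 17047 of 84239 reconstructed genes. In HXB/BXH they were 6694 with batch, 1677 to 3974 without a replicate and 10718 reconstructed, against 3992. In FXLE/LEXF they were 1062 with batch, 1059 with the trend, 60 to 1359 without a replicate and 2896 in v6, against 962. Among classic strains they were 9522 with batch, 8371 with the axis, 6294 in v5, 7031 reconstructed and 1199 to 3584 without a replicate, against 4029. They were 4003 with the trend, 3708 with 1 library per animal, 2776 in v6 and 3844 without the omitted strains named above. For BN-Lx/Cub and SHR/OlaIpcv (549 higher, 391 lower) they were 3497 with batch, 408 in v6, 548 with 1 library per animal, 198 to 1291 without a replicate (901 higher and 390 lower without animals 3) and 1877 reconstructed (772 higher, 1105 lower). For SHR/OlaIpcv and WKY/NCrl (71 higher, 101 lower) they were 4365 with batch, 467 with the axis, 33 to 109 without a replicate, 1611 reconstructed (852 higher, 759 lower) and 4504 in v5 (2381 higher, 2123 lower). For F344/Stm and LE/Stm (28 higher, 138 lower) they were 676 in v5. For F344/NHsd and LEW/SsNHsd they were 82 to 201 without a replicate, 269 in v5, 87 in v6 and 382 reconstructed, against 200. The median difference of all reconstructed genes was -0.14 for BN-Lx/Cub and SHR/OlaIpcv and 0.19 for SHR/OlaIpcv and WKY/NCrl, against -0.02 and -0.01. With only the 10429 genes above the median level, fewer genes were called in each comparison (3579, 1532, 384, 1269, 469, 18, 52 and 33), with 6 receptors not tested.

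Not run were F344/Stm and LE/Stm without animals 2 or without LE/Stm, FXLE/LEXF in the v5 table and its mixtures in v6, which hold too few samples. The leading axis, the transcripts and the omission of 4 animals low in Y genes were chosen after seeing the data.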
